A study of Mus musculus with 20 samples.

Results

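The expression of 34 genes of glycolysis and pyruvate metabolism was examined in the cerebral cortex of aged APOE4 mice on a ketogenic diet (KD) or its control diet (CD). The genes were taken from a fixed list of enzymes, glucose transporters and regulators, and are 34 of the 23413 gene names counted. Their values were not a criterion, although earlier results of these data were known when the list was chosen. All mice were APOE4 knock-in animals, in which human APOE4 stands in place of mouse Apoe, and all were 22 months old. They were fed isocaloric amounts of CD or KD for 12 months, from 10 months of age, and were fasted before tissue collection. Each mouse gave 1 total RNA library of frozen cortex. There were 9 females, of which 5 were fed CD and 4 KD, and 11 males, of which 5 were fed CD and 6 KD. A wild-type or APOE3 group was not analysed here, so every comparison is between diets, sexes or library series within APOE4 mice.

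Glycolysis splits glucose into pyruvate in the cytosol. Pyruvate is then reduced to lactate by lactate dehydrogenase (LDH), carboxylated to oxaloacetate by pyruvate carboxylase, or converted to acetyl-CoA in mitochondria by the pyruvate dehydrogenase (PDH) complex. PDH kinases phosphorylate and switch off the complex and PDH phosphatases switch it on again, so that these enzymes set how much pyruvate enters the citric acid cycle. Glucose is the main fuel of the adult brain, and on a KD ketone bodies made in the liver replace part of it.

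Depth was between 12207161 and 29109990 counts per library. The library numbers in the labels fall into 2 series of 10, here called series 1 (21015275 counts or more) and series 2 (17697342 counts or fewer), and each group has mice in both. Mouse Apoe was at 1.33 to 3.34 CPM (counts scaled to library size) in all 20 libraries. Xist lay at 319 CPM or above in every female, while no male exceeded 7.59 CPM. CD female E228 had 14.0 CPM of the Y-linked gene Ddx3y, against at most 1.64 CPM in the other females. The summed level of 12 markers of the striatum, a region beneath the cortex, was 2565 to 3256 CPM in KD females E61, E68 and E207 and 3804 CPM in KD male E59. It was 357 CPM in KD female E227, 1188 CPM in CD female E249 and at most 653 CPM in the remaining 14 libraries. E59 also had 2387 CPM of 8 choroid plexus markers, against at most 63.4 CPM elsewhere. Markers of cortical excitatory neurons were detected in every library, and their sum was lowest in E61, E68, E249 and E207, at 336 to 417 CPM. Fits without E227, without E227 and E249 together, and without E59 and E228 together were made as alternatives, and values from them are given beside several results.

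Of the 34 genes, 33 passed the filter on low counts and were tested among 15660 genes. Eno1, the widely expressed enolase, did not pass, with 0 to 4 counts per library. Of the 50-base windows along its principal transcript, 72.2% also occur in transcripts of other loci, 70.5% in Eno1b. Reads that match more than 1 locus may be lost or assigned elsewhere, and the handling of such reads is not given in the sources used here. The share of windows found at other loci was 82.5% for Gapdh, 67.96% for Pgk1, 41.5% for Pgam1, 30.5% for Pkm, 30.3% for Pdhb and 27.0% for Ldhb. It was 19.6% for Gpi1, 17.1% for Ldha and 13.9% for Aldoa. The counts of these genes are therefore uncertain. For 17 genes, among them Hk1, Hk2 and the 3 PDH kinases Pdk1, Pdk2 and Pdk3, no such window was found. Genes that overlap a gene's own locus were counted apart. They shared 25.1% of the windows of Pfkfb2, 17.1% of those of Pfkp and 16.5% of those of Pdha1.

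Levels were compared between genes as CPM per kilobase of merged exons, and they spanned a wide range. Aldoa, an aldolase that splits fructose 1,6-bisphosphate, was highest at 374 ± 118 CPM per kilobase (SD, n = 20), above 99.85% of the genes tested. Ldhb followed at 210.1 ± 36.5, Aldoc at 188 ± 36.7, Tpi1 (triose phosphate isomerase) at 163 ± 33.1, Pkm (pyruvate kinase) at 147 ± 43.9 and Eno2 (neuronal enolase) at 125 ± 23.5 CPM per kilobase. Each of these 5 lies within 1 SD of its neighbour in this order, and Ldhb moved from place 2 to place 4 when levels were divided by the longest transcript instead. At the low end stood Slc2a8, a glucose transporter of intracellular membranes, at 2.10 ± 0.809, Hk2 at 0.892 ± 0.255 and Pfkfb1 at 0.162 ± 0.055 CPM per kilobase.

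**Figure D1:**
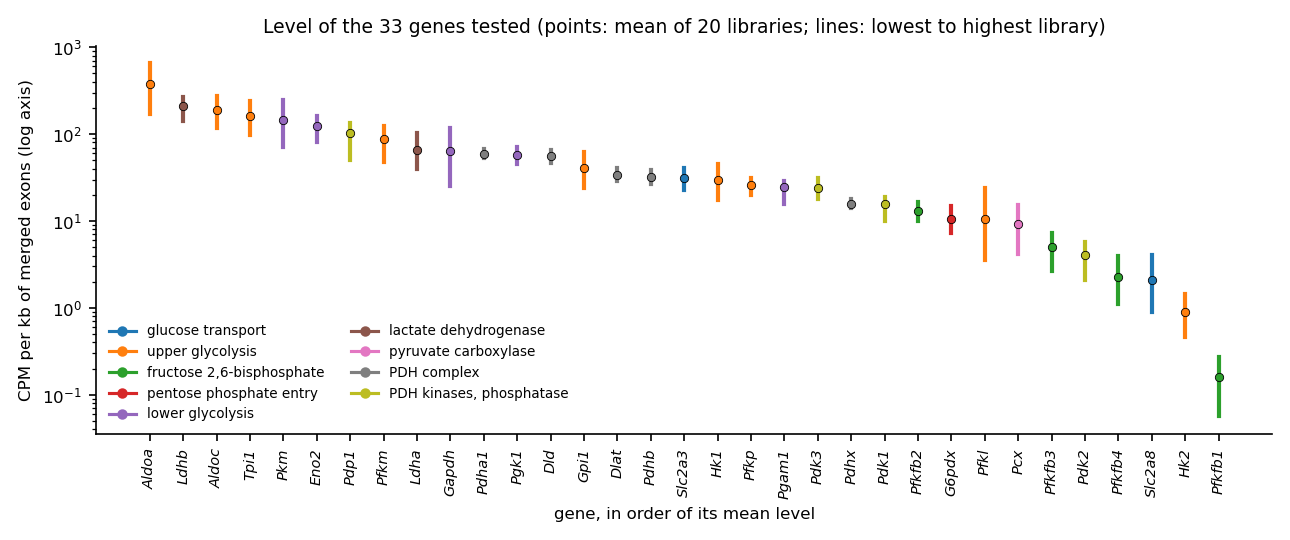
Mean level of the 33 genes tested, in CPM per kilobase of merged exons on a log axis, with a line from the lowest to the highest of 20 libraries and colours for the role of each gene. Aldoa lies at 374 and Pfkfb1 at 0.162 CPM per kilobase, and the lines of neighbouring genes overlap except between Pdk3 and Pdhx and between Hk2 and Pfkfb1.

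Among the 34 genes, the same isoenzyme of each family had the highest mean share in all 4 groups. Per length, Hk1, the hexokinase that predominates in brain, made up 97.0% ± 0.928 (SD, n = 20) of the Hk1 and Hk2 signal. Pfkm, the muscle-type phosphofructokinase, made up 70.6% ± 2.04 of the 3 phosphofructokinases, with 21.3% from Pfkp and 8.08% from Pfkl. Ldhb, whose subunit favours the use of lactate, made up 76.3% ± 3.78 of LDH, with a range of 67.1% to 81.4% over the 20 libraries. Of the summed signal of the PDH kinases Pdk1, Pdk2 and Pdk3, Pdk3 made up 55.2% ± 6.99, Pdk1 35.4% ± 5.38 and Pdk2 9.35% ± 2.63. The fourth kinase, Pdk4, is not one of the 34 genes and was not part of this sum. Pfkfb2 made up 63.7% ± 7.13 of the 4 genes for the enzymes that make and degrade fructose 2,6-bisphosphate, the activator of phosphofructokinase. In KD females the Pdk1 share of the 3 PDH kinases was 24.2% to 27.6% in 3 mice and 39.0% in E227, against 29.8% to 38.6% in CD females. All shares depend on the length used, and their SD covers only the libraries. Mean levels of Ldhb and Ldha were 210 and 65.1 CPM per kilobase of merged exons, but 253 and 119 per kilobase of longest transcript. Those of Pdk3, Pdk1 and Pdk2 were 24.1, 15.5 and 4.08 by merged exons, but 29.2, 23.3 and 5.75 by longest transcript.

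The first question was whether 12 months of KD altered these genes in females. At FDR 0.1 and a 1.5-fold change, the thresholds of the study, 0 of the 33 genes were called by edgeR's quasi-likelihood test, where 0.0447% of all genes were. At FDR 0.1 and any fold the count was also 0 (all genes 0.0511%). With unadjusted p-values, 2 genes lay under 0.05, 6.06% of the 33 against 11.4% of all genes, namely Pdk1 (lower on the KD) and Hk2 (higher). The fitted change was above 0 for 15 and below 0 for 18 genes, and its median was -0.01 on the log2 scale (all genes 0.01). For 21 of the 33 genes the 95% interval of the change lay within 1.5-fold in either direction, as it did for 52.3% of all genes. Without E227 and E249, a pair chosen with earlier results of these data known, 6 genes passed FDR 0.1 (G6pdx, Hk2, Pdk1, Pdk2, Pfkp and Pgk1), 2 of them past 1.5-fold, where 18.4% of all genes passed FDR 0.1. In that fit 10 genes, 30.3%, had an unadjusted p under 0.05, and so had 25.7% of all genes. Without this pair every KD female had a striatal marker sum of 2565 CPM or more and every CD female one of 339 CPM or less, so that diet and striatal content cannot be told apart in this fit.

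Markers of other cell types moved with the diet in females as well. All 12 striatal markers were higher in KD females, 10 of them at an unadjusted p under 0.05, with a median log2 fold change of 2.10 and sums of 357 to 3256 CPM in KD and 251.3 to 1188 CPM in CD females. All 8 markers of cortical excitatory neurons were lower, 5 at an unadjusted p under 0.05, with sums of 336 to 822 CPM in KD and 378 to 1026 CPM in CD females. All 9 microglial markers were higher, 4 at an unadjusted p under 0.05, with sums of 385 to 559 CPM in KD and 296 to 409 CPM in CD females. None of these markers passed FDR 0.1 and none was at 0 in all libraries. In bulk tissue fewer cells of a type and less RNA per cell cannot be told apart, and the part of tissue makeup in the results below was not tested beyond the fit with a striatal score as covariate. The score is the mean over the 12 striatal markers of log2 CPM, scaled for each marker to unit SD over the libraries, and ran from -0.873 in E265 to 1.94 in E59. With it 1 of the 33 genes, Hk2, had an unadjusted p under 0.05 in females, 3.03% against 4.75% of all genes.

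Pdk1, a PDH kinase, had the smallest p of the 33 genes in females. It lies on chr2:71873224-71903858 (GRCm38, plus strand). The level was 77.8, 78.7, 83.2 and 133 CPM in KD females E207, E68, E61 and E227. It was 109.5, 122, 128, 129.5 and 135 CPM in CD females E249, E67, E62, E228 and E265. Thus 3 KD females lay below all 5 CD females, while E227 was higher than 4 of them. Males showed no such low group, apart from 1 mouse. CD males had 126, 127, 129, 130.0 and 131 CPM, and KD males ranged from 96.6 through a median of 132 to 147 CPM, where the lowest was E59. The 4 libraries under 100 CPM were the 4 with striatal marker sums of 2565 CPM or more, and the next lowest, E249 at 109.5 CPM, had the fifth highest sum.

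The mean was 93.3 ± 26.8 CPM in KD females (SD, n = 4) and 125 ± 9.64 CPM in CD females (SD, n = 5). The fitted log2 fold change was -0.48 (SE 0.13, 95% interval -0.76 to -0.20), with an adjusted p of 0.202 in edgeR. An exact two-sided permutation test of the log2 CPM gave p = 0.0635 over 126 splits, where 0.00794 is the smallest possible, and p = 0.134 after adjustment over the 6 tests made on the 3 genes tested so. In males the change was -0.02 (SE 0.12, adjusted p = 1). The effect of KD in females minus that in males was -0.45 (SE 0.18), with an unadjusted p of 0.0211 and an adjusted p of 1. Within series 1 alone the change in females was -0.67 (adjusted p = 0.0604), and within series 2, which holds E227, it was -0.31 (adjusted p = 0.834). Without E227 it was -0.69 (adjusted p = 0.00225), and without both E227 and E249 -0.74 (adjusted p = 0.000189), with a difference between the sexes of -0.71 (adjusted p = 0.00768). E227 was the KD female that stood apart in Pdk1, and the values without it leave only KD females with high striatal marker sums. In series 1 alone, likewise, KD females E61 and E68 had sums of 2565 CPM or more and CD females E62 and E67 339 CPM or less. Diet and striatal content cannot be told apart in females of that series. With the striatal score as covariate the change in females was -0.17, with an unadjusted p of 0.0999 and an adjusted p of 0.912 in edgeR, and the difference between the sexes was -0.20 (unadjusted p = 0.114).

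**Figure D2:**
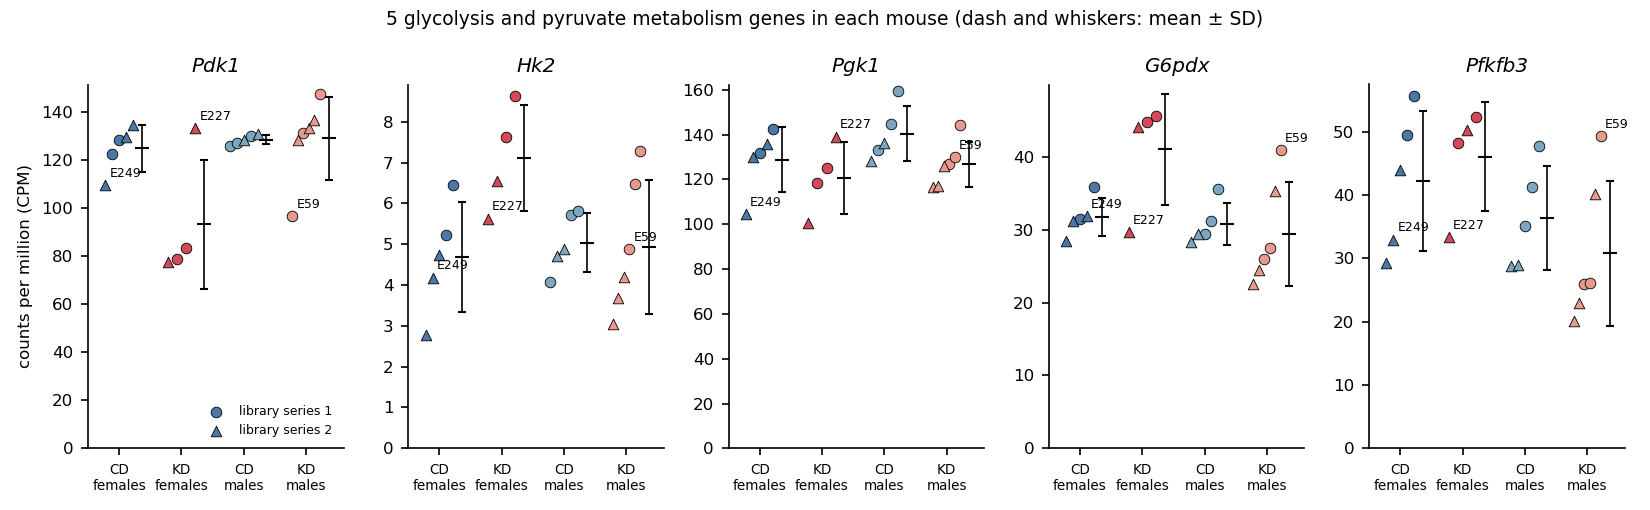
Level of Pdk1, Hk2, Pgk1, G6pdx and Pfkfb3 in each mouse, in CPM from 0, by diet and sex, with the mean and SD of each group beside its points and mice E227, E249 and E59 labelled. For Pdk1, 3 KD females lie at 77.8 to 83.2 CPM and E227 at 133 CPM, and E59 is the lowest KD male at 96.6 CPM.

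Promoters of the 3 genes with an unadjusted p under 0.05 for the diet (Pdk1, Hk2 and Pgk1) are shown because these genes are textbook targets of hypoxia-inducible factor 1, which binds the core ACGTG or GCGTG. Each window is 300 bases long, lies mostly before the RefSeq start (GRCm38.p6) and is written on the strand of the gene. Capitals mark ACGTG or GCGTG and their reverse complements CACGT and CACGC. The windows are chr2:71872974-71873273 (plus strand) for Pdk1, chr6:82774405-82774704 (minus strand) for Hk2 and chrX:106186850-106187149 (plus strand) for Pgk1.
Pdk1: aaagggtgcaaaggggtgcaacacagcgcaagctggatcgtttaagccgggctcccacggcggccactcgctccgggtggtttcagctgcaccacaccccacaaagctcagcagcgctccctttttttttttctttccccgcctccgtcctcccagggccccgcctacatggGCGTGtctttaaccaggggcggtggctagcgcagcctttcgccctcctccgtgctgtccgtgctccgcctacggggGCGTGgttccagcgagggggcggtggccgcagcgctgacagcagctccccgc
Hk2: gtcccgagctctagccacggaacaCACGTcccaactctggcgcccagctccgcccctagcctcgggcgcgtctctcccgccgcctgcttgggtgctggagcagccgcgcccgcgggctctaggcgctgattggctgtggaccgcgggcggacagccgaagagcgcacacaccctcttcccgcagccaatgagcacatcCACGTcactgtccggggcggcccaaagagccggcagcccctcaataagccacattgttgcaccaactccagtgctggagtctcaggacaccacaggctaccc
Pgk1: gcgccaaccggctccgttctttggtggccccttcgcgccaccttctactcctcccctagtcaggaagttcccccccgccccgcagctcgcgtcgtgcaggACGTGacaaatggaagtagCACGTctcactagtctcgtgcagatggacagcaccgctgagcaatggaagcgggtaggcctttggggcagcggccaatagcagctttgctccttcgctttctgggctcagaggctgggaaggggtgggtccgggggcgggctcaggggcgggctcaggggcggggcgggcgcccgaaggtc
The Pdk1 window holds 2 copies of GCGTG and 0 of ACGTG, and the windows of Hk2 and Pgk1 hold 2 copies of ACGTG each and 0 of GCGTG. Promoter windows were at hand for 32 of the 34 genes, as 52 windows. ACGTG was found in at least 1 window of 17 genes, 53.1%, against 28% of the tested genes with a window. Counted by window, 21 of the 52 held it, and 19.6% of all windows did. GCGTG was found for 21 genes, 65.6%, against 53.6% of the tested genes with a window. By window it was in 27 of the 52, and in 32.4% of all windows. The E-box CACGTG, which contains ACGTG, was found for 6 genes (18.8%, tested genes 11.2%). The first Ldha window held 5 copies of ACGTG. A match is a description of the letters and not of a bound site.

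**Figure D3:**
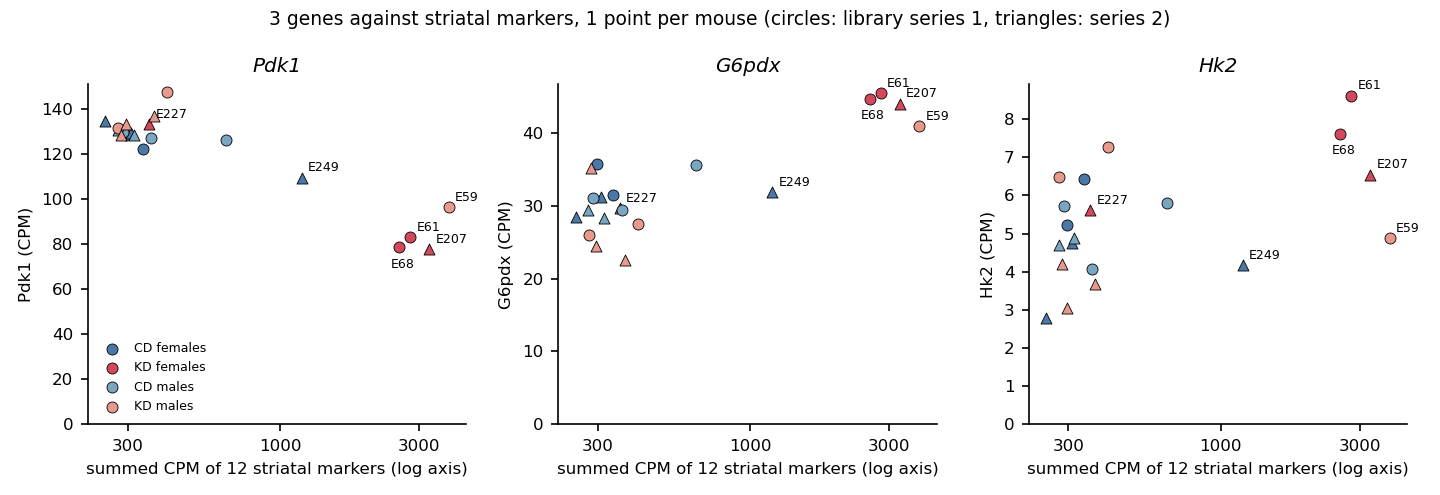
Level of Pdk1, G6pdx and Hk2 (CPM, from 0) against the summed CPM of 12 striatal markers on a log axis, 1 point per mouse, with colours for the groups and shapes for the library series. The 3 KD females and KD male E59 with sums of 2565 CPM or more have the 4 lowest Pdk1 levels, at 96.6 CPM or less, and the 4 highest G6pdx levels, at 40.9 CPM or more, whereas for Hk2 E59 lies at 4.87 CPM among the other mice.

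Like Pdk1, the other genes that act on the PDH complex did not pass the test in either sex. Pdk2 had a log2 fold change of -0.42 (SE 0.26, adjusted p = 0.591) in females and -0.02 in males. Pdk3 had 0.05 in females and 0.02 in males. Pdp1, the catalytic subunit of a PDH phosphatase, had -0.34 in females and -0.22 in males, and the mean over both sexes was -0.28 (SE 0.14, adjusted p = 0.375). Pdk4, the PDH kinase induced by fasting in many tissues, is outside the 34 genes and had a fitted change above 0 in females. It was at 16.3 to 20.7 CPM in KD females and 11.5 to 15.9 CPM in CD females, so the groups did not overlap, as was the case for 2.1% of all genes. The log2 fold change was 0.30 (SE 0.14, unadjusted p = 0.0413, adjusted p = 0.416 in edgeR) in females and -0.03 (SE 0.12) in males. Of the 5 genes of the PDH complex itself, 4 had the smallest within-group SD of all 33 genes tested, and the exception was Dld, the E3 subunit. Pdha1 (E1 alpha) was at 214 ± 12.0 CPM in CD females, 221 ± 6.39 in KD females, 227.6 ± 15.4 in CD males and 227.1 ± 23.4 in KD males. The fitted changes of Pdha1, Pdhb, Dlat, Dld and Pdhx lay between -0.11 and 0.07 in the 2 sexes. All their 95% intervals lay within 1.5-fold, in females and in males.

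Hk2, the inducible hexokinase bound to mitochondria (chr6:82725025-82774454, minus strand), was the gene with the highest fitted change in females. KD females had 5.62, 6.55, 7.63 and 8.62 CPM in E227, E207, E68 and E61. CD females had 2.78, 4.18, 4.75, 5.23 and 6.44 CPM in E265, E249, E228, E62 and E67. The groups overlapped, although 3 of 4 KD females exceeded every CD female. Within each series the KD females lay above the CD females, but there a group of females held only 2 or 3 mice. The share of all genes that separate in this way was not computed. The log2 fold change was 0.51 (SE 0.18, 95% interval 0.14 to 0.88, adjusted p = 0.270). Permuting the log2 CPM exactly gave p = 0.0317, or 0.134 after adjustment. In males the values were 4.07 to 5.81 CPM on CD and 3.05 to 7.27 CPM (median 4.54) on KD. There the log2 fold change was -0.04 (SE 0.16, adjusted p = 1), and the difference between the sexes was 0.55 (SE 0.24, unadjusted p = 0.0335, adjusted p = 1). In males the change was 0.21 in series 1 alone and -0.39 in series 2 alone, and the difference between the sexes was 0.22 and 0.96 in these series. Leaving out E227 and E249 gave 0.54 for females (adjusted p = 0.0920). Adding the striatal score as covariate gave 0.51 (unadjusted p = 0.0348, adjusted p = 0.912). Hk2 made up 4.46% ± 1.01 of the hexokinase signal per length in KD females and 2.80% ± 0.646 in CD females.

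Transport and the first steps of glycolysis showed no call. Slc2a3, the neuronal glucose transporter GLUT3, was at 205 ± 26.4 CPM in CD females, 232 ± 15.0 in KD females, 222 ± 5.61 in CD males and 244.6 ± 33.97 in KD males. Its log2 fold change was 0.12 (SE 0.09) in females and 0.13 (SE 0.08) in males, and the mean over both was 0.13 (SE 0.06, unadjusted p = 0.0531, adjusted p = 0.370). Hk1 had -0.16 in females and 0.04 in males. Gpi1, Pfkl, Pfkm, Pfkp, Aldoa, Aldoc and Tpi1, which carry glucose 6-phosphate to triose phosphate, lay between -0.15 and 0.11 in females and between -0.04 and 0.22 in males. Only Pfkl, the liver-type phosphofructokinase, had an interval reaching past 1.5-fold among these 7 genes, in females (-0.63 to 0.73) as well as in males (-0.40 to 0.83). Of the fructose 2,6-bisphosphate enzymes Pfkfb1 had the lowest value in females, -0.56 (SE 0.34, adjusted p = 0.589), at a mean of 0.548 CPM in KD and 0.796 CPM in CD females, which is 7 to 26 counts per library in females.

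G6pdx, glucose 6-phosphate dehydrogenase, opens the pentose phosphate pathway. KD females had 29.7, 44.1, 44.8 and 45.5 CPM, where the lowest was again E227, and CD females had 28.4, 31.2, 31.5, 31.9 and 35.8 CPM. Hence 3 of 4 KD females lay above all CD females. The log2 fold change was 0.29 (SE 0.14, unadjusted p = 0.0599, adjusted p = 0.469). It was 0.42 without E227 and E249 (adjusted p = 0.0769) and -0.03 with the striatal score as covariate (unadjusted p = 0.81), so that its sign turned. KD males had a lowest value of 22.5, a median of 26.8 and a highest value of 40.9 CPM, the last in E59, and CD males had 28.3, 29.4, 29.5, 31.1 and 35.6 CPM. The 4 highest levels in the study were thus those of the 4 libraries with striatal marker sums of 2565 CPM or more.

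Pgk1, phosphoglycerate kinase, which makes the first ATP of lower glycolysis, had a fitted change below 0 in both sexes. It lies on chrX:106187100-106203699 (plus strand). KD females had 100.4, 119, 125 and 139 CPM and CD females 104, 129.8, 132, 136 and 142 CPM. KD males had 117, 126 and 144 CPM as lowest, median and highest values, and CD males had 128, 133, 136, 145 and 159 CPM. The groups overlapped in both sexes, with the means of KD mice lower in each. The log2 fold change was -0.16 (SE 0.10) in females, -0.15 (SE 0.09) in males and -0.16 (SE 0.07, unadjusted p = 0.0303, adjusted p = 0.295) for the mean of both. With 1 mouse left out the change in females lay between -0.27 (without E227) and -0.10 (without E207) and that in males between -0.19 and -0.12. With the striatal score as covariate it was -0.04 (unadjusted p = 0.731) in females and -0.08 (unadjusted p = 0.264) for the mean. Exact permutation tests gave p = 0.444 in females and p = 0.0671 in males, where 0.00216 is the smallest possible. Without E227 and E249 the mean over both sexes was -0.24 (adjusted p = 0.0106), and without E227 alone -0.21 (adjusted p = 0.0691). Pgk1 is a gene whose reads are shared with other loci, as given above.

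Like Pgk1, the remaining genes from triose phosphate to pyruvate and its fates did not pass the test. Gapdh, Pgam1, Eno2 and Pkm lay between -0.02 and 0.15 on the log2 scale in females and between -0.09 and 0.11 in males. Gapdh, often used as a reference gene, ranged from 105 to 482 CPM, a 4.60-fold range over the 20 libraries, and its interval for the diet effect reached past 1.5-fold in both sexes. Ldha had -0.08 in females and 0.05 in males, and Ldhb had 0.06 in females and -0.12 in males. The Ldhb share of LDH per length was 77.1% ± 2.61 in CD females, 78.9% ± 3.57 in KD females, 76.3% ± 1.18 in CD males and 73.9% ± 5.18 in KD males, so in each sex the means differed by less than the SD of the KD group. Pcx, pyruvate carboxylase, had 0.28 (SE 0.22) in females and 0.03 (SE 0.20) in males.

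**Figure D4:**
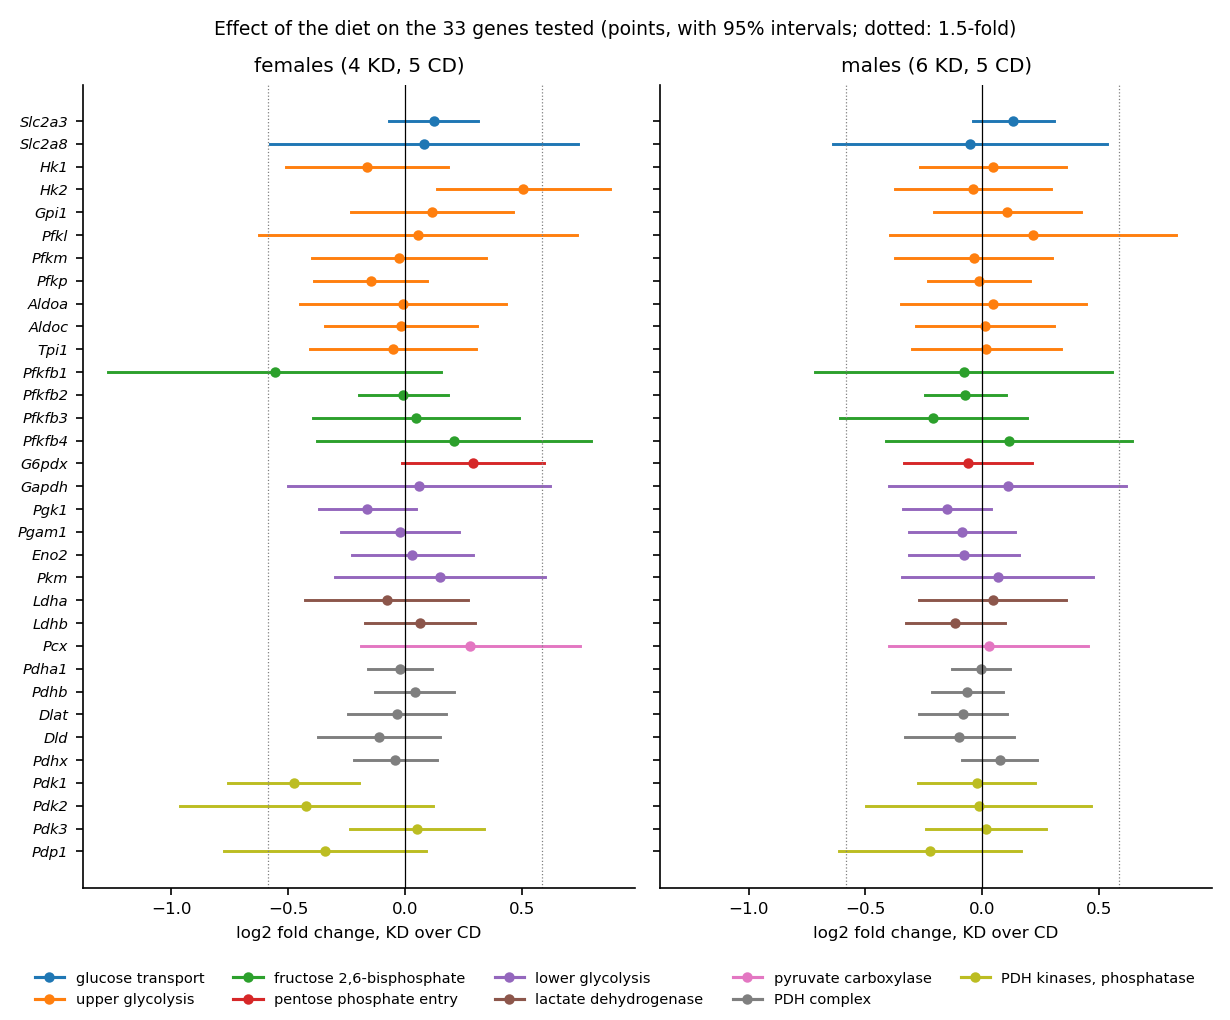
Log2 fold change of KD over CD for the 33 genes tested, in females and in males, with 95% intervals, coloured by role; dotted lines mark 1.5-fold. In females the intervals of Pdk1 (-0.76 to -0.20) and Hk2 (0.14 to 0.88) leave out 0, and in males every interval includes it.

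In males 0 of the 33 genes were called at either threshold, and the count over all genes was 0 as well (0% called). With unadjusted p-values, 0 genes lay under 0.05, where 3.56% of all genes did, and DESeq2 also gave 0 of the 33 at FDR 0.1. The log2 fold changes ran from -0.22 (Pdp1) to 0.22 (Pfkl), with a median of -0.02 (all genes 0.00). For 26 of the 33 genes the 95% interval lay within 1.5-fold, against 62.6% of all genes. No gene of the 33 had diet groups without overlap in either sex, compared with the same 2.1% of all genes in females and 0.217% in males. For the mean of both sexes 0 genes were called (0.268% of all genes, or 0.37% at FDR 0.1 and any fold). Pdk1 (-0.25) and Pgk1 had an unadjusted p under 0.05, 6.06% of the 33 against 13.9% of all genes, and 31 of 33 intervals lay within 1.5-fold. For the diet effect of females minus that of males 0 genes were called, as was 0% of all genes, and Pdk1 and Hk2 had an unadjusted p under 0.05, where 2.14% of all genes did.

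The sexes were next compared, as the mean of both diets. No gene of the 33 was called (0.134% of all genes at FDR 0.1 and 1.5-fold, 0.153% at any fold), and 4 had an unadjusted p under 0.05, 12.1% of the 33 against 13.6% of all genes. These were Pdk1, Pfkfb3, G6pdx and Pfkp. The median log2 difference of females minus males was -0.10 (all genes 0.00), with 23 genes below and 10 above 0. All 5 tested genes of lower glycolysis and 8 of the 9 genes of upper glycolysis were below 0. By GC content of the longest transcript, the median was -0.17 for the genes of at least 50% and -0.01 for those under 50%. Over all genes tested with an annotation these medians were -0.07 and 0.05. The part of base composition in the sex difference was not tested. Pfkfb3, the enzyme that raises fructose 2,6-bisphosphate most strongly, had 0.42 (SE 0.14, adjusted p = 0.231). It was at 29.2, 32.9, 43.9, 49.5 and 55.6 CPM in CD females and 33.4, 48.2, 50.3 and 52.3 CPM in KD females. CD males had 28.8, 28.9, 35.1, 41.2 and 47.8 CPM, and KD males had a lowest value of 20.1, a median of 26.1 and a highest value of 49.3 CPM. The sexes overlapped over most of this range. The difference was -0.28 (SE 0.09, adjusted p = 0.209) for Pdk1, 0.27 (SE 0.10, adjusted p = 0.263) for G6pdx and -0.21 (SE 0.08, adjusted p = 0.273) for Pfkp, the platelet-type phosphofructokinase. Without E227, 6 genes passed FDR 0.1 (G6pdx, Ldha, Pdk1, Pfkfb3, Pfkp and Tpi1), where 11.7% of all genes did, and 0 passed with the 1.5-fold change. The number with an unadjusted p under 0.05 was 10 without E227 (23.9% of all genes), 10 without E228 (17%) and 9 without E59 and E228 (18.4%).

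Marker levels also differed with sex. All 8 markers of cortical excitatory neurons were lower in females, 6 of them at an unadjusted p under 0.05, with sums of 336 to 1026 CPM in females and 765 to 1035 CPM in males. All 7 endothelial markers were higher in females, 5 at an unadjusted p under 0.05, with sums of 218 to 307 CPM in females and 187 to 246.7 CPM in males. All 12 striatal markers were higher in females, 4 at an unadjusted p under 0.05, and all 9 microglial markers, also 4. None of these markers passed FDR 0.1. With the striatal score as covariate 2 of the 33 genes had an unadjusted p under 0.05 between the sexes, 6.06% against 3.64% of all genes, and the difference was -0.14 for Pdk1, 0.30 for Pfkfb3 and 0.13 for G6pdx. The part of the other markers in the sex differences was not tested.

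The library series went with larger differences than diet or sex. In series 2, which is also the shallower one, 16 genes were lower and 1 was higher at FDR 0.1, so 17 of the 33, where 33.2% of all genes passed (15.6% lower and 17.6% higher). With the 1.5-fold change 1 gene was called (7.24% of all genes). That gene was Pcx, at 53.7 CPM in series 1 (38.0 to 72.3) and 33.3 CPM in series 2 (19.7 to 44.1), with a log2 difference of -0.65 (SE 0.15, adjusted p = 0.0055). Aldoa had -0.54, Gapdh -0.49, Pkm -0.48, Hk2 -0.45 and Ldhb -0.33, all at FDR 0.1. Pfkfb2 went the other way, from 83.2 CPM (72.1 to 98.4) to 106 CPM (92.6 to 119.5), a log2 difference of 0.39 (SE 0.06, adjusted p = 0.000275). The median over the 33 genes was -0.22 (all genes -0.02). All 9 genes of upper glycolysis, all 5 tested genes of lower glycolysis and both LDH genes were below 0, whereas the PDH complex lay between -0.13 and 0.02 and the PDH kinases and phosphatase between -0.04 and 0.15.

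The difference between the series was also read against base composition. Among 20 genes with a GC content of at least 50% over the longest transcript, 19 were lower in series 2, with a median of -0.34. Among 13 genes under 50% GC, 7 were lower, with a median of -0.04. Over all genes tested with an annotation 5568 of 6996 and 2134 of 7682 were lower, and the medians were -0.21 and 0.12. Across the 33 genes Pearson's r between GC content and the log2 difference of the series was -0.69, and across 14678 genes it was -0.54; the genes share the same 20 libraries and are not independent. The within-group SD of log2 CPM had a median of 0.38 for the genes of at least 50% GC and 0.17 for the others. Over all genes tested with an annotation these medians were 0.40 and 0.25. Each group holds mice of both series, so this SD includes the difference between the series. Of the 33 genes it was largest for Pfkl (0.65), Slc2a8 (0.57), Gapdh (0.56) and Pcx (0.55), and smallest for Pdhx (0.10), Dlat (0.10), Pdha1 (0.11) and Pdhb (0.12). Only 2.2% of all genes tested varied less than Pdhx.

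Single libraries stood out. CD female E249 was the lowest of 20 for 12 of the 33 genes and CD female E265 for 8, both in series 2, while KD male E64 of series 1 was the highest for 15. In E249 16 genes were more than 1.5-fold below their median log2 CPM over the libraries and in E265 12, and in E64 9 genes were more than 1.5-fold above it. The matching counts over all genes were not computed. The median deviation of the 33 genes was -0.535 in E249, -0.394 in E265 and 0.292 in E64 on the log2 scale. Over all genes tested it was -0.005, -0.116 and 0.054. The median deviation of the 9 genes of upper glycolysis was -0.77 in E249, -0.68 in E265 and 0.52 in E64 on the log2 scale. For the PDH complex the same libraries had medians from -0.02 to 0.04. E64 also had the lowest sum of oligodendrocyte markers, 1346 CPM against 1510 to 4251 CPM elsewhere, and the highest sum of hippocampal markers, 377 CPM against 125 to 205 CPM. Their part in the high levels of E64 was not tested. E249 had a striatal marker sum of 1188 CPM and a sum of 378 CPM for cortical excitatory neurons. The part of these markers in its low levels was not tested either. Both E249 and E265 are CD females, so they bear on the diet effect in females and on the sex difference.

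**Figure D5:**
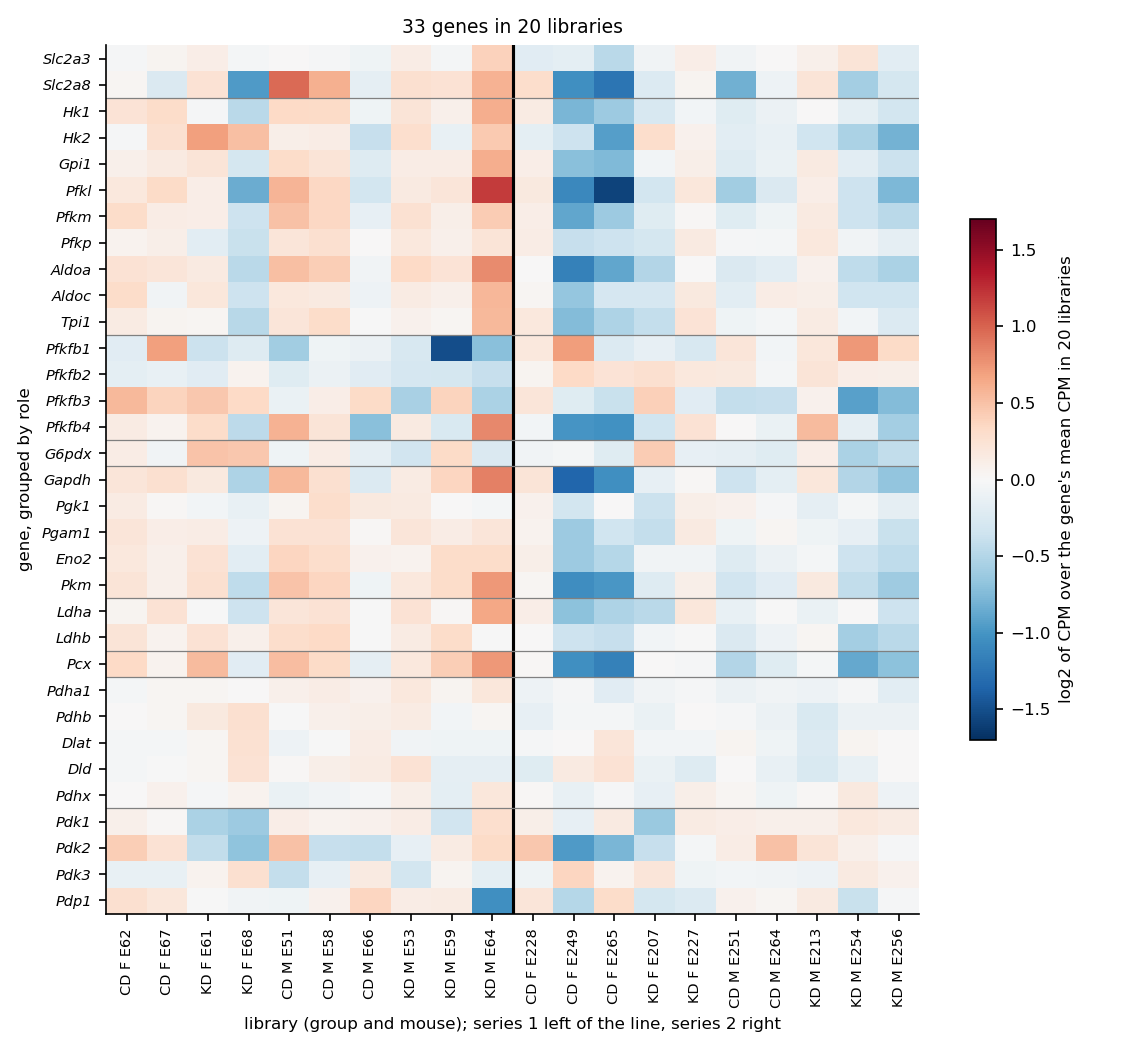
Deviation of the 33 genes in each of the 20 libraries, as log2 of the CPM over the mean CPM of the gene (red higher, blue lower), with libraries ordered by series and group and genes by role. Taken from each gene's median log2 CPM instead of its mean CPM, upper glycolysis has a median deviation of -0.77 in CD female E249. On that scale it is -0.68 in CD female E265 and 0.52 in KD male E64, and the PDH complex has -0.02 to 0.04.

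Other genes of glucose metabolism were counted beside these, from lists that hold 78 genes, of which 72 were tested. At FDR 0.1 0 of the 72 passed in females, in males, for the mean of both sexes, for the difference between the sexes and between females and males. With unadjusted p-values under 0.05, 5 were higher and 3 lower in KD females (11.4% of all genes under 0.05), 1 higher and 1 lower in males (3.56% of all genes), and 7 higher and 5 lower for the mean (13.9% of all genes). Pgm2, a phosphoglucomutase that interconverts glucose phosphates, had the smallest p in females. It was at 74.0 ± 13.7 CPM in KD females and 51.03 ± 6.39 in CD females. Its log2 fold change there was 0.45 (SE 0.11, adjusted p = 0.190), and its mean over both sexes was 0.30 (adjusted p = 0.125). Its relative Pgm2l1, which makes glucose 1,6-bisphosphate, was at 835 ± 246 CPM in KD and 1227 ± 212 CPM in CD females, with -0.61 (SE 0.18, adjusted p = 0.214). In males the 3 smallest p belonged to Pdpr, a regulatory subunit of PDH phosphatase (-0.20), Me2, a mitochondrial malic enzyme (0.36), and Pygl, the liver-type glycogen phosphorylase (0.37), each with an adjusted p of 1. For the mean of both sexes Pdpr (-0.15, adjusted p = 0.207) and Prkaa2, a catalytic subunit of AMP-activated kinase (-0.25, adjusted p = 0.218), came after Pgm2.

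Between the sexes Pgm2l1 had a negative difference of females minus males (-0.37, adjusted p = 0.218 in edgeR), and Pygl had a positive one (0.42, adjusted p = 0.261). Neither passed the test. The difference of the diet effect between the sexes was -0.63 for Pgm2l1, -0.35 for the malic enzyme Me1 and 0.30 for Pgm2, each with an adjusted p of 1. By list, 17 of 19 further genes of lactate, pyruvate and PDH control, 14 of 17 other glycolytic isoenzymes and genes of gluconeogenesis, 13 of 13 glycogen genes, 7 of 8 further pentose phosphate genes, 7 of 7 further glucose transporters and 14 of 14 regulators of glycolytic genes could be tested. The median change in females was 0.15 for glycogen genes, 0.14 for pentose phosphate genes, 0.24 for glucose transporters, 0.04 for regulators, 0.002 for lactate, pyruvate and PDH control and -0.004 for the isoenzymes and gluconeogenesis, beside 0.01 for all genes.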

How the data were processed

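Total RNA libraries from the cortex of 20 mice were sequenced as 50-base pairs. Per the study's methods, the authors aligned reads to mm10 with STAR and deposited raw counts per gene name for each library. How reads with several matches were counted is not given in the sources used here. Groups came from the labels, and replicates are separate mice, named by animal ID. Names were matched to GENCODE M21 (GRCm38) for 21777 of 23413.

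Counts were scaled by upper-quartile normalization, filtered with filterByExpr and fitted in edgeR 4.0.16 (R 4.3.3) with the quasi-likelihood test on all 20 libraries, with 4 groups and the library series as terms. P-values were adjusted by the Benjamini-Hochberg method over 15660 genes, and a gene was called at FDR 0.1 and 1.5-fold. The study's removal of unwanted variation (RUVg, 1 or 2 factors) was an alternative, as were TMM, DESeq2 1.42.0, other filters and left-out mice. Log2 CPM used a prior count of 2. The fits were tested on simulated data. Genes called, or with an unadjusted p under 0.05 for the diet, are shown mouse by mouse; G6pdx and Pfkfb3 are shown as members with an unadjusted p under 0.05 between the sexes. The genes, lists and tests were chosen with earlier results of these data known. Results for some genes of the wider pathway lists are not reported here.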

Additional observations from a re-analysis of the deposited data

Results flagged for a closer look

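Of 132 sets of values (1 gene in 1 group), 6 held a mouse that stood apart from the others by Dixon's test at the 95% level, where chance gives about 1 in 20, or 6.6. Pdk1 in KD female E227 was at 133 CPM, above the other 3 KD females. G6pdx in the same mouse was at 29.7 CPM, below the other 3. Pdk1 in KD male E59 was at 96.6 CPM, below the other KD males. Pdp1 in CD female E249 was at 335 CPM, Dlat in CD female E265 at 192 CPM and Pfkl in KD male E64 at 159 CPM.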

How the results depend on the processing

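No paired analysis was possible because the mice are named by animal IDs, none of which is shared between groups. Of 1334 values recomputed under alternatives, 1215 were scored as unchanged. For a single gene this meant the same direction and the same side of the threshold. A count had to stay within 1.5-fold, or at 0 where it was 0. A median had to move by less than 0.237 on the log2 scale, the SD between mice. All 201 medians met this wide rule, also where their sign turned, so the total says little about them. Of the 33 genes, the number at FDR 0.1 for the diet in females was 0, and became 1 with RUVg and 2 factors (1.72% of all genes), 1 with the likelihood ratio test (1.69%), 1 with DESeq2 (2.23%), 1 in series 1 alone (5.65%), and 6 without E227 and E249 (18.4%). With 1.5-fold as well it became 1 in series 1 alone and 2 without E227 and E249. For the mean of both sexes 0 became 1 in series 1 alone (7.53% of all genes) and 4 without E227 and E249 (17.5%), and for the difference between the sexes 1 at either threshold without that pair (4% at FDR 0.1). Between females and males 0 became 1 with DESeq2 (2.26%) and 4 without the pair (7.8%). For the library series, 17 became 10 at FDR 0.05, and the 1 gene past 1.5-fold became 3 with the striatal score, 2 without the pair and 4 without E59 and E228, a pair chosen after seeing the data. Leaving out 1 mouse at a time gave 0 to 1 genes in females and 0 to 1 for the difference of the diet effect (both thresholds), 0 to 2 for the mean, 0 to 6 between the sexes, and 10 to 18 (1 to 4 past 1.5-fold) for the series. The highest counts in females (7.09% of all genes), for the mean (7.53%), for the difference (0.257%) and between the sexes (11.7%) came without E227; leaving out E249 also gave 1 in females (9.09%) and 2 for the mean (10.7%). At an unadjusted p under 0.05 the 2 genes in females became 5 without E227 or without E249. Those for the difference of the diet effect became 0 without E207 and 4 without E227. The 2 for the mean became 1 without E58, E61, E207 or E265, 4 without E59 or E67 and 5 without E256. The share of all genes is not given beside these counts or beside those past 1.5-fold above. They are therefore not read as particular to the 33 genes. In males, where Pdk1 and Hk2 had changes near 0, signs turned: Pdk1 was 0.044 in series 2 alone, 0.027 with the striatal score and 0.044 without E59 and E228 (-0.078 to 0.041 with 1 mouse left out), and its exact permutation p on unlogged CPM was 0.965. Hk2 was 0.214 in series 1 alone and 0.006 without E59 and E228 (-0.136 to 0.022 with 1 mouse left out). G6pdx in females became -0.033 with the striatal score. The cause was not tested. The median over the 33 genes in females lay between -0.179 (series 1 alone) and 0.155 (series 2 alone), and between the sexes between -0.159 (series 1 alone) and 0.006 (RUVg, 2 factors). Depth limits Pfkfb1 and Eno1, at 26 counts or fewer per library.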
